A study of Mus musculus with 12 samples.

Results

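Mitochondrial ribosomal proteins are encoded in the nucleus, made in the cytosol and imported into mitochondria, where they assemble with mitochondrial rRNA into the large and the small subunit of the mitochondrial ribosome. This ribosome translates only the few mRNAs of mitochondrial DNA, which encode membrane subunits of the oxidative phosphorylation complexes. Many of its proteins have counterparts in the bacterial ribosome and others are found only in mitochondria. In the liver, hepatocytes are rich in mitochondria. The members described here were all entries of the deposited expression table whose identifier starts with Mrpl or Mrps followed by a digit, 75 of 19852. They comprised 46 genes named for the large subunit (Mrpl), 27 genes named for the small subunit (Mrps) and 2 pseudogenes, Mrpl48-ps and Mrps33p. Mrps18a and Mrps30 belong to the large subunit despite their names, and Mrps36 was later placed with the alpha-ketoglutarate dehydrogenase complex. Entries Mrpl33andBre and Mrps34andNme3 join a member with another gene, so their values cannot be assigned to the member alone. Mrpl42, Mrpl57 and Mrps24 were listed under other identifiers, lay outside the naming rule and were not analysed here.

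RNA from liver was sequenced from C57BL/6 mice aged 20 weeks, with 3 libraries in each of 4 groups: female WT, female ARE-Del, male WT and male ARE-Del. ARE-Del mice lack an AU-rich element of Ifng, the interferon gamma gene, and the series is titled for their chronic interferon gamma expression. The controls were littermates. The labels give ARE-Del-/- in the extraction text of all 12 samples, WT samples included, so groups were taken from the genotype entries. Beyond the number of samples, the labels do not say that replicates were separate animals. P-values then measure only the spread between these samples. Values are RPKM (reads per kilobase of transcript scaled to mapped reads), a unit per length that allows levels to be compared between genes.

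The RPKM values of a library summed to 174636 to 190533 in WT females and 201338 to 208647 in ARE-Del females. In males the sums were 173476 to 184252 in WT and 189579 to 195444 in ARE-Del. ARE-Del sums were thus higher than WT sums in both sexes, without overlap. Read totals were not used here, so the depth is unknown. The relative depth estimated from the steps of low values was 0.908 to 1.45 times that of female WT 1. Ifng was higher in all 6 ARE-Del than in all 6 WT libraries (exact permutation of genotype within sex, 2-sided, p = 0.005 over 400 arrangements). The library labelled female ARE-Del 2 had 0.0456 RPKM of Xist against 33.0 to 45.6 in the other female libraries, and it had no Ddx3y. Hepatocyte markers summed to 24262 to 42530 RPKM in the 12 libraries, and Alb was between 8.56% and 16.5% of summed RPKM. Kupffer cell and macrophage markers summed to 134 to 226 RPKM in WT females, 719 to 842 in ARE-Del females, 93.2 to 156 in WT males and 402 to 495 in ARE-Del males, and 11 of 11 tested markers rose with ARE-Del in both sexes. Lymphocyte markers summed to 2.32 to 3.90, 13.6 to 18.3, 1.82 to 2.73 and 8.28 to 12.2 RPKM in the same order of groups. Stellate and endothelial markers summed to 29.4 to 45.7, 45.3 to 56.3, 20.1 to 28.5 and 34.4 to 49.8 RPKM in that order. In these bulk samples fewer cells of a type and less RNA per cell cannot be told apart. The part of cell composition in the results was not tested.

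The members were expressed at moderate levels. The median member had a mean of 4.54 RPKM over the 12 libraries, against 2.32 RPKM over the 10568 genes with at least 0.5 RPKM in at least 3 libraries, which are called tested genes here. Of the 75 members, 74 were tested. Mrpl48-ps was listed at 0 in 10 libraries, with 0.0294 RPKM in female ARE-Del 1 and 0.0385 RPKM in female ARE-Del 2.

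Mrpl12, which also binds the mitochondrial RNA polymerase, had the highest level, with 30.0, 27.6 and 26.8 RPKM in WT females, 25.6, 26.4 and 25.7 in ARE-Del females, 28.2, 29.2 and 30.6 in WT males and 28.5, 29.0 and 26.4 in ARE-Del males. Its next neighbours were Mrpl14, Mrpl50, Mrpl18 and Mrps16, with library values between 11.5 and 16.4 RPKM. Ranges of these 4 overlapped, so their order is not set beyond the spread, whereas Mrpl12 lay above all of them in every library. At the low end, Mrps9 ran from 1.11 to 1.50 RPKM, Mrps25 from 1.33 to 1.72 RPKM and the pseudogene Mrps33p from 0.512 to 2.88 RPKM. The 46 members named Mrpl had a median of 5.28 RPKM and the 27 named Mrps, Mrps18a, Mrps30 and Mrps36 included, one of 4.01 RPKM.

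By role, the median of the mean RPKM was 4.19 for the 29 large-subunit members with a bacterial counterpart and 5.98 for the 18 large-subunit members without one. It was 5.55 for the 14 small-subunit members with a counterpart and 4.22 for the 10 without. Each role list spanned a wide range of levels, from 1.58 RPKM (Mrpl19) to 27.8 RPKM (Mrpl12) in the first.

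The level of each member varied little between libraries. For the median member the highest library was 1.30 times the lowest, against 1.65 times for the median tested gene and 1.54 times for the 6496 tested genes within the members' range of mean RPKM. Only Mrps33p among the 74 (1.35%) exceeded 2-fold between its highest and lowest library, against 32.6% of tested genes and 22.8% of those at the members' levels. The median SD between replicates on the log2(RPKM + 1) scale was 0.0782 for members and 0.0988 for tested genes.

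**Figure D1:**
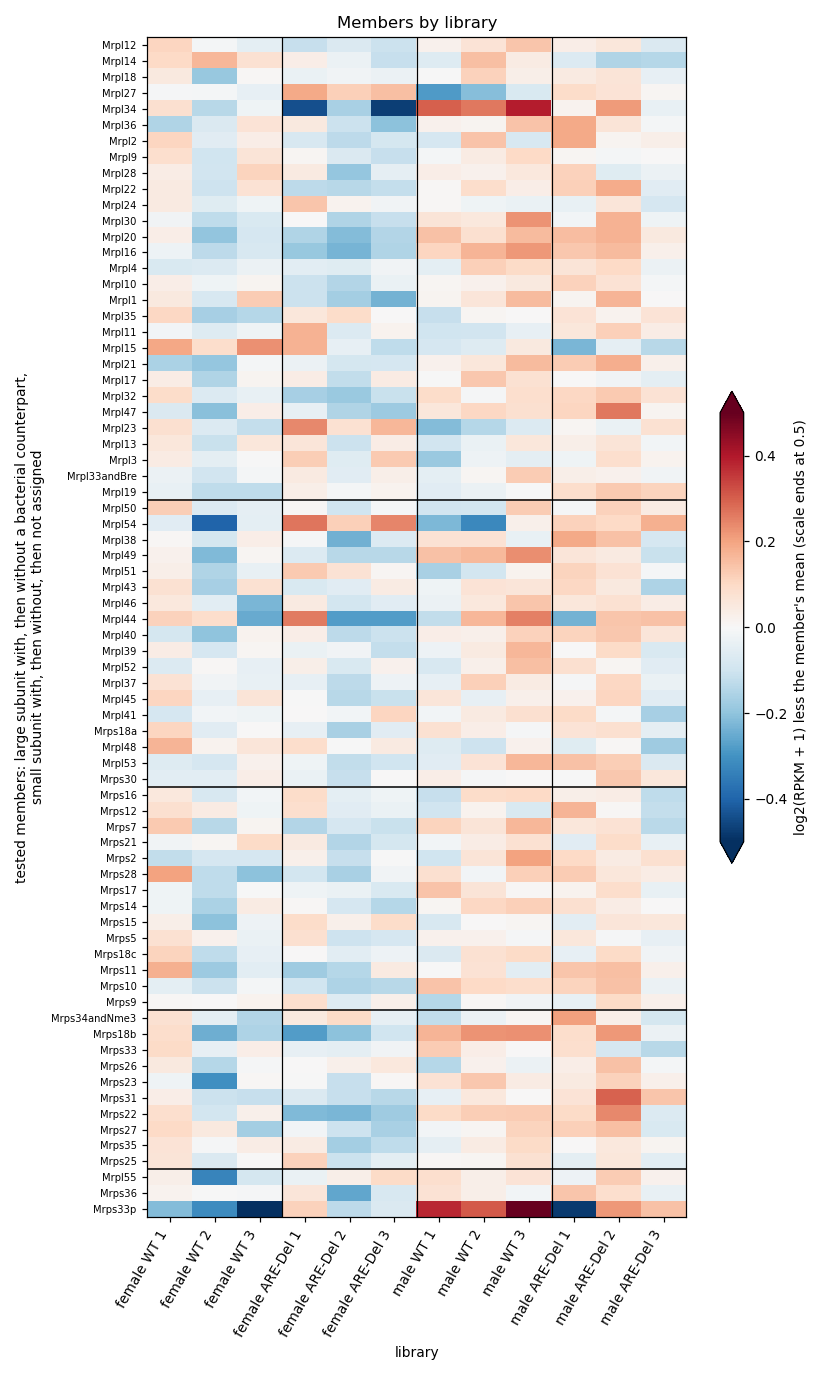
Each row is 1 of the 74 tested members and each column 1 of the 12 libraries; colour gives log2(RPKM + 1) less the member's mean over the libraries. Most cells are pale, and Mrpl34, Mrpl27, Mrpl54 and the pseudogene Mrps33p stand out.

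Promoter sequence was examined as a feature that the naming rule did not use. At least 1 window of 300 bases, 250 before and 50 after the start, was held in the RefSeq table (GRCm38.p6) for 63 of the 75 members. Some genes had more than 1 window. Each gene was counted once, as a match if any of its windows held the letters. The number of windows per gene was not matched between the sets. The ETS motif CCGGAAG, bound by factors such as GABP, was found on either strand in 23 members (36.5%), against 9.93% of all 27025 genes with a window and 20.6% of the 6335 tested genes with one. The NRF1 motif GCATGCGC was found in 7 members (11.1%), against 3.05% and 6.27%. The YY1 motif AANATGGCG was found in 8 members (12.7%), against 2.76% and 6.46%. At least 1 of these 3 motifs, which mark factors known to drive nuclear genes for mitochondria, was present in 32 members (50.8%), 14.4% of all genes with a window and 29.8% of tested ones. The TATA letters TATAAA were in 4 members (6.35%), against 15.7% and 9.39%. GC content, averaged over the windows of a gene, had a median of 58.0% in members, against 52.8% in all genes and 60.7% in tested genes.

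Of each chosen window, the 120 bases that end just before the start are printed, with matches in capitals. Mrpl12 is shown as the member with the highest level and holds no match to the ETS, NRF1 or YY1 letters in the bases shown (chr11:120484517-120484636, plus strand). Mrpl27 (chr11:94653671-94653790, plus strand) and Mrpl34 (chr8:71464806-71464925, plus strand) are shown because they were called in opposite directions in ARE-Del, and each holds the ETS letters. Mrpl9 (chr3:94443216-94443335, plus strand) holds the NRF1 letters on both strands, as overlapping matches. Mrpl36 (chr13:73330889-73331008, plus strand) holds the YY1 letters on the reverse strand. A match is a description of letters, not of a bound site.
Mrpl12: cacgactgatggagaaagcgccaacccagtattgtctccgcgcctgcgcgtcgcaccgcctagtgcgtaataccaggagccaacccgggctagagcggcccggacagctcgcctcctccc
Mrpl27: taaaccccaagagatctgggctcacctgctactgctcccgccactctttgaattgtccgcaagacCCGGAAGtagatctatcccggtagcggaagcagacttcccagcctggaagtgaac
Mrpl34: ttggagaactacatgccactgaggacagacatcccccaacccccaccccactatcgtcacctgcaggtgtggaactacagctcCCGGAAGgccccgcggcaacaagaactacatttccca
Mrpl9: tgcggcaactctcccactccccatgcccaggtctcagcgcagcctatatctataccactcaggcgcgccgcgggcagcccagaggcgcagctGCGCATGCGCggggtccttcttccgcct
Mrpl36: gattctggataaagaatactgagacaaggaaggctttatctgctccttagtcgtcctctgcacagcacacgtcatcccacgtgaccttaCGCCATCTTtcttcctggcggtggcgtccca

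In female ARE-Del livers the members as a group stayed near their WT level on the deposited values, while many other genes rose. Summed RPKM was also higher in these libraries. With each library shifted by its median deviation, as described below, the members' median log2 change was -0.14. The comparison asks what chronic interferon gamma expression changes in the liver of each sex. By limma on log2(RPKM + 1) with Benjamini-Hochberg adjustment over all tested genes, 25.8% of tested genes were called higher and 5.53% lower in female ARE-Del than in female WT at an adjusted p of 0.05. Among the 74 tested members, 1 was called higher and 1 lower. The median log2 change was -0.04 for the members and 0.09 for all tested genes, and 71 members changed by less than 0.25 in either direction. For a member, the median standard error of a difference was 0.0715, and shifts well above it also missed the threshold, such as Mrps22 at -0.22 (adjusted p = 0.0507).

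Members named Mrpl and Mrps lay close together in this comparison. The 46 Mrpl members had a median log2 change of -0.04, with 1 called in each direction, and the 27 Mrps members had one of -0.05 with no call. Across the 4 role lists the medians ran from -0.03 (small subunit, bacterial counterpart) to -0.06 (small subunit, no counterpart).

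Mrpl54, a large-subunit protein found in mitochondria and not in bacteria, rose in female ARE-Del. Its values were 9.69, 7.44 and 9.76 RPKM in female WT and 12.4, 11.1 and 12.2 RPKM in female ARE-Del. The groups did not overlap, and female WT 2 was the lowest. The log2 change was 0.38 ± 0.11 (SE, n = 3 per group, adjusted p = 0.0178 by limma). The call was lost without female WT 2, female ARE-Del 1 or female ARE-Del 3 (adjusted p up to 0.0636). It was also lost under median-of-ratios scaling, when libraries were centred on their median value, and without female ARE-Del 2 when each library was shifted by its median deviation (adjusted p up to 0.105). In males Mrpl54 had 8.52, 7.90 and 10.3 RPKM in WT and 11.0, 10.9 and 11.6 RPKM in ARE-Del, also without overlap, for a log2 change of 0.30 ± 0.11 (adjusted p = 0.0637 by limma).

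Mrpl34, the counterpart of the bacterial protein bL34, fell in female ARE-Del. It had 11.7, 9.91 and 10.9 RPKM in female WT and 7.87, 9.75 and 7.67 RPKM in female ARE-Del. The groups did not overlap, although female ARE-Del 2, the library without Xist, lay just under the lowest WT library. The log2 change was -0.33 ± 0.10 (SE, n = 3 per group, adjusted p = 0.0229 by limma) and -0.43 without that library (adjusted p = 0.00529 by limma). Leaving out female WT 1, female WT 3, female ARE-Del 1 or female ARE-Del 3, or fitting only the 6 libraries compared, ended the call, with adjusted p up to 0.0984.

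In male ARE-Del livers 19.5% of tested genes were called higher and 2.04% lower than in male WT. Of the 74 members, 1 was called higher and none lower by limma, and 10 had an unadjusted p under 0.05. The members' median log2 change was -0.01, against 0.10 over all tested genes. The member called was Mrpl27, counterpart of the bacterial protein bL27 at the peptidyl transferase centre. It had 9.85, 10.4 and 11.5 RPKM in male WT and 13.1, 12.8 and 12.3 RPKM in male ARE-Del, with no overlap. The log2 change was 0.25 ± 0.07 (SE, n = 3 per group, adjusted p = 0.0210 by limma). The call was lost in 9 of 23 alternative analyses: without male WT 1, male WT 2, male ARE-Del 1 or male ARE-Del 2 (adjusted p up to 0.0983) and in all 5 analyses that rescaled the libraries (adjusted p up to 0.407). In females Mrpl27 had 12.2, 12.1 and 11.8 RPKM in WT and 14.1, 13.4 and 13.7 RPKM in ARE-Del, again with no overlap, for a log2 change of 0.17 ± 0.07 (adjusted p = 0.0713 by limma).

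**Figure D2:**
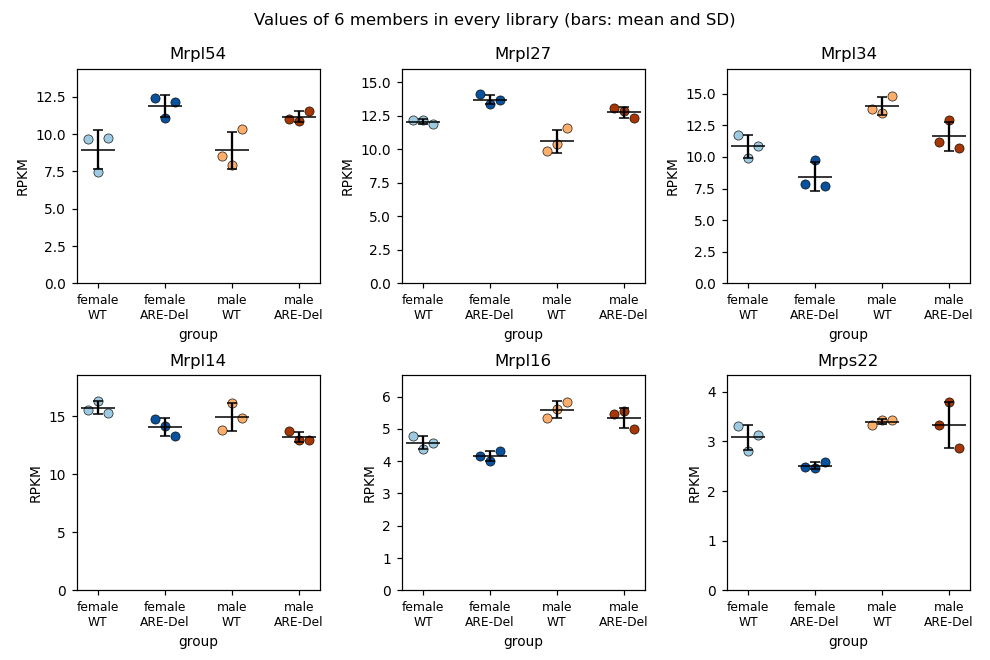
RPKM of 6 members (vertical axis, from 0) in the 4 groups; points are libraries, bars the mean and SD of 3. Mrpl54 and Mrpl27 sit higher in ARE-Del of both sexes, Mrpl34 lower, and Mrpl16 and Mrps22 lower in female than in male ARE-Del.

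Averaging the genotype difference over both sexes, with 6 libraries on each side, gave the smallest errors. In this comparison 35.9% of tested genes were called higher and 6.6% lower. Of the members, 4 were called higher and 2 lower, all 6 from the large subunit. Mrpl54 (log2 change 0.34, adjusted p = 0.00343) and Mrpl27 (0.21, adjusted p = 0.00372) were higher in all 6 ARE-Del than in all 6 WT libraries. The Mrpl54 call was lost under median-of-ratios scaling (adjusted p = 0.0515) and the Mrpl27 call in all 5 analyses that rescaled the libraries (adjusted p up to 0.53). Mrpl23 had 2.44, 2.11 and 1.998 RPKM in WT females, 2.85, 2.44 and 2.65 in ARE-Del females, 1.81, 1.95 and 2.10 in WT males and 2.28, 2.19 and 2.44 in ARE-Del males. Within males the groups did not overlap and within females they overlapped at 2.44 RPKM, and the averaged log2 change was 0.18 (adjusted p = 0.0123). That call too was lost in all 5 analyses that rescaled the libraries (adjusted p up to 0.741).

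Mrpl19 had 1.51, 1.36 and 1.36 RPKM in WT females, 1.63, 1.56 and 1.61 in ARE-Del females, 1.48, 1.53 and 1.58 in WT males and 1.74, 1.82 and 1.79 in ARE-Del males. Within each sex its ARE-Del libraries were all higher, with an averaged log2 change of 0.12 (adjusted p = 0.0134). The call was lost in all 5 analyses that rescaled the libraries (adjusted p up to 0.797), and the direction turned to -0.04 under quantile normalization and when libraries were centred on their median value. Mrpl14, one of the most abundant members, had 15.6, 16.4 and 15.3 RPKM in WT females, 14.8, 14.1 and 13.3 in ARE-Del females, 13.8, 16.2 and 14.9 in WT males and 13.8, 12.9 and 13.0 in ARE-Del males. It fell by 0.16 on the log2 scale in the averaged comparison (adjusted p = 0.0267), without overlap within either sex. In males the groups almost touched, at 13.78 RPKM in male WT 1 and 13.75 RPKM in male ARE-Del 1. The averaged Mrpl14 call ended without female ARE-Del 3, male WT 2, male WT 3, male ARE-Del 2 or male ARE-Del 3, with adjusted p up to 0.0711. Mrpl34 fell by 0.29 (adjusted p = 0.00515) and passed the test in all 22 alternative analyses of this comparison.

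No member was called for a difference between the sexes in the genotype effect. By limma the interaction called 0.435% of tested genes higher and 0.132% lower. It called 0 members, and 2 of the 74 had an unadjusted p under 0.05. Across the 74 members the female and the male log2 changes, which share no library, correlated with Pearson r = 0.26, and 44 of 74 had the same sign. The pseudogene Mrps33p lay far from the rest, and r was 0.62 over the other members. The correlation over all tested genes is not given here, so these values cannot be judged against it.

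Because most changed genes rose in ARE-Del, the members were also read against the median gene. In females 65 of the 74 members (87.8%) changed by less than the median tested gene, and their median lay 0.13 below it on the log2 scale. In males 64 members (86.5%) lay below the median gene, with a median 0.10 under it. Of the tested genes within the members' range of levels, 52.4% lay below the median gene in females and 50.1% in males. In the averaged comparison 67 members (90.5%) lay below, among them all 27 Mrps members.

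The same shift was seen library by library. The median member deviated from its own mean by less than the median tested gene in all 3 female ARE-Del libraries and by more in all 3 female WT and all 3 male WT libraries. In male ARE-Del the members lay above the genes in replicates 1 and 2, as in female WT, and below in replicate 3. The ratio of the members' median RPKM to the median RPKM of tested genes was 1.97 to 2.06 in WT and 1.68 to 1.75 in ARE-Del females. It was 2.28 to 2.37 in WT and 1.95 to 2.03 in ARE-Del males. WT and ARE-Del libraries did not overlap in either sex. The members' share of summed RPKM was 0.223% to 0.233% in WT females, 0.192% to 0.209% in ARE-Del females, 0.241% to 0.265% in WT males and 0.216% to 0.237% in ARE-Del males.

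**Figure D3:**
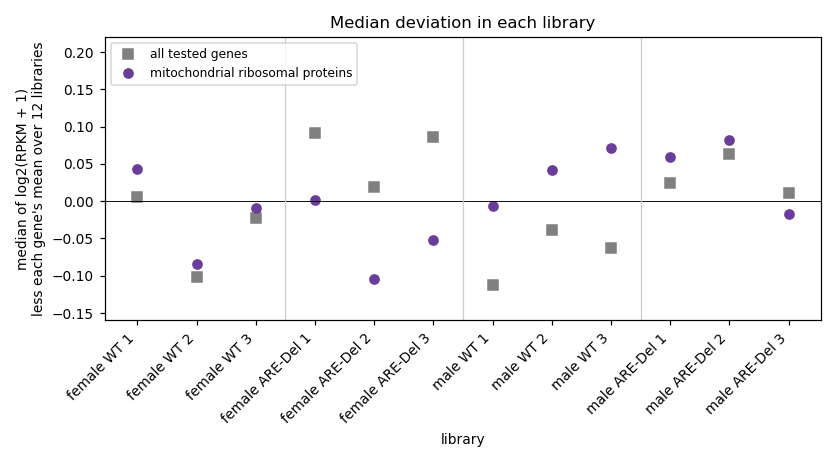
Median over genes of log2(RPKM + 1) less each gene's own mean (vertical axis) in the 12 libraries, for the members (circles) and all tested genes (squares). Circles lie above squares in the WT libraries and below them in the female ARE-Del libraries.

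To test members against the median gene, each library was shifted by its median deviation over tested genes and the fit repeated, a scaling chosen after the data were seen. With it 17.8% of tested genes were called higher and 15.5% lower in female ARE-Del. Of all calls 53.4% were higher, against 82.3% as deposited, a balance that the shift itself brings about. Of the members, 22 were called lower and 1, Mrpl54, higher. Without female ARE-Del 2 the count was 20 lower and none higher. The members called lower with the largest changes, named after their values were seen, were Mrpl34 (-0.44), Mrps22 (-0.32), Mrpl1 (-0.31), Mrpl15 (-0.27) and Mrpl14 (-0.26).

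In males the shifted fit called 10.3% of tested genes higher and 6.45% lower, and 7 of 74 members lower, a share of members near that of all genes. In the averaged comparison it called 20.3% higher and 19.9% lower, and 37 members lower and 1 higher, again Mrpl54. Of the 22 members called lower in females and the 7 in males, 4 were shared, 18.2% of the first list and 57.1% of the second. The 7 included the pseudogene Mrps33p, and 6 remained without pseudogenes. The overlap over all tested genes is not given here, so these shares cannot be judged against it. Numbers of members called depended on the scaling: in females, other scalings that centre the libraries called 37 to 47 members, and in males 20 to 28. The members' median was negative under each of these scalings in both sexes.

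Cytosolic ribosomal proteins and oxidative phosphorylation subunits were described from the same fit on deposited values. The cytosolic ribosomal proteins, which translate nuclear mRNAs, were called higher for 27 and lower for 1 of 71 tested in female ARE-Del, with a median log2 change of 0.22. In males 3 of 71 were called higher, with a median of 0.10. Nuclear-encoded oxidative phosphorylation subunits mostly assemble with the products of the mitochondrial ribosome, and the Sdh subunits in the list do not. The list had a median of -0.10 in females, with 1 called higher and 2 lower of 69, and 67 of 69 lay below the median gene. In males its median was 0, with 62 of 69 below the median gene. No difference between these groups and the members was tested.

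**Figure D4:**
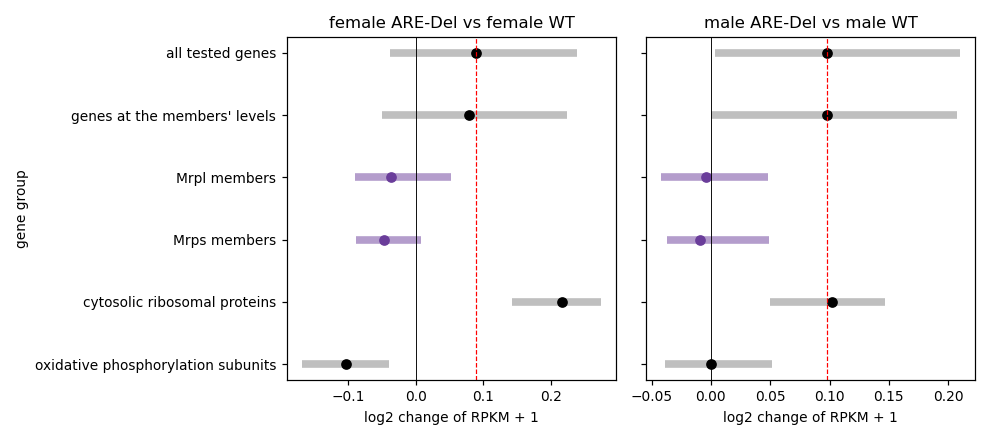
Median log2 change in ARE-Del (points) and the middle span from the lower to the upper quartile (bars) for 6 gene groups in females and males; the dashed red line is the median of all tested genes. Both member groups lie left of the dashed line, with medians between -0.05 and 0.

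Factors that act with the mitochondrial ribosome were mostly not called in the genotype comparisons within each sex. Over all tested genes 25.8% were called higher and 5.53% lower in females, and 19.5% and 2.04% in males. None of 12 translation factors (initiation, elongation, release and recycling) was called in either sex. Of 17 tested genes for ribosome assembly and rRNA modification, none was called in females and Dhx30, an RNA helicase of ribosome assembly, rose in males (log2 change 0.22, adjusted p = 0.0289). The list of aminoacyl-tRNA synthetases had 19 tested genes, among them Qrsl1, which is not itself a synthetase. Of these, Kars, which serves both cytosol and mitochondria, rose in females (0.35, adjusted p = 0.00884) and in males (0.35, adjusted p = 0.0143). Yars2, the mitochondrial tyrosyl-tRNA synthetase, fell in females by 0.24 (adjusted p = 0.0254). Tars2, the mitochondrial threonyl-tRNA synthetase, rose in males by 0.19 (adjusted p = 0.0355). The averaged comparison, with 35.9% of tested genes called higher and 6.6% lower, called more of these genes. It called 3 assembly and modification genes higher and 1 lower, 3 genes of the synthetase list higher and 2 lower, and no translation factor.

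Of 14 genes for mitochondrial DNA transcription and RNA handling, Polg, the catalytic subunit of the mitochondrial DNA polymerase, rose in females (0.20, adjusted p = 0.0277). Its accessory subunit gene Polg2 fell in females by 0.22 (adjusted p = 0.00607), and none of the 14 was called in males. Letm1, a protein of the inner membrane, was called lower in females (-0.29, adjusted p = 0.00326), the only call among 13 genes for membrane insertion and quality control in either sex's genotype comparison. Of 8 tested regulators of nuclear genes for mitochondria, Myc (0.70, adjusted p = 0.00820) and Esrra (0.25, adjusted p = 0.0304) rose in females. Ppargc1a, a coactivator of mitochondrial biogenesis, rose in males (0.43, adjusted p = 0.00887). Over all tested genes 25.8% were called higher in females and 19.5% in males. The regulators' median log2 change was 0.07 in females and 0.10 in males, against 0.09 and 0.10 over all tested genes. In the averaged comparison 3 of 14 transcription and RNA handling genes were called higher and 1 lower. For membrane genes it was 2 higher and 1 lower of 13, and for regulators 4 higher and none lower of 8. Macrophage and lymphocyte marker sums moved with genotype in both sexes beside all of these calls. The hepatocyte sum, most of it Alb, did not overlap between genotypes in females, nor did the stellate and endothelial sum in males. Single markers gave another picture by sex. Of 10 hepatocyte markers, 1 was called higher and 1 lower in females, and 4 higher and none lower in males. Of 10 stellate and endothelial markers, 5 were called higher in females and 3 in males, and none lower. The part of these sums and markers was not tested.

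Most members had lower mean values in females than in males, 54 of 74 in WT and 58 of 74 in ARE-Del, and few passed the test. In WT, 6.72% of tested genes were called higher and 3.04% lower in females. Of 74 members, 3 were called lower and none higher, with a median log2 difference (female minus male) of -0.04, against 0.04 over all tested genes. In ARE-Del, 16.4% of tested genes were called higher and 6.02% lower in females. There 10 members were called lower and none higher, 6 of the large and 4 of the small subunit, with a median of -0.09 against 0.04 over all tested genes. Without female ARE-Del 2 this count was 6, and without male ARE-Del 2 it was 4. In both genotypes 65 members lay below the median gene.

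Mrpl34 showed the sex difference in both genotypes. Its values were 13.8, 13.4 and 14.8 RPKM in male WT and 11.2, 12.9 and 10.7 RPKM in male ARE-Del, above all female libraries of the same genotype. The log2 difference, female minus male, was -0.35 ± 0.10 in WT (adjusted p = 0.0459 by limma) and -0.42 ± 0.10 in ARE-Del (adjusted p = 0.00931 by limma). In WT the call was lost in 12 of 23 alternative analyses and in ARE-Del in none. Mrpl16, counterpart of the bacterial protein uL16, had 4.78, 4.38 and 4.57 RPKM in WT females, 4.17, 4.01 and 4.30 in ARE-Del females, 5.34, 5.62 and 5.84 in WT males and 5.46, 5.57 and 4.99 in ARE-Del males. Every male library was above every female one. The difference was -0.24 ± 0.06 in WT (adjusted p = 0.0277 by limma), lost without female WT 2, female WT 3, male WT 2 or male WT 3, with a replicate block and in the fit of only the 6 libraries compared, and -0.30 ± 0.06 in ARE-Del (adjusted p = 0.00471 by limma).

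Mrpl20 had 5.63, 4.65 and 5.12 RPKM in WT females, 4.84, 4.58 and 4.85 in ARE-Del females, 6.19, 5.86 and 6.25 in WT males and 6.21, 6.31 and 5.71 in ARE-Del males. Female and male libraries did not overlap, and the difference passed the test in ARE-Del (-0.30, adjusted p = 0.00942) and had an adjusted p of 0.0769 in WT. Mrps22, a small-subunit protein without a bacterial counterpart, had 2.48, 2.47 and 2.59 RPKM in female ARE-Del and 3.33, 3.80 and 2.87 RPKM in male ARE-Del. The difference was -0.30 (adjusted p = 0.0160), and it was lost without male ARE-Del 2, its highest library (adjusted p = 0.0678). In WT it had 3.31, 2.81 and 3.13 RPKM in females and 3.33, 3.42 and 3.43 RPKM in males.

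Mrps31 had 3.74, 3.61 and 3.53 RPKM in female ARE-Del and 4.23, 5.12 and 4.49 RPKM in male ARE-Del, a difference of -0.28 (adjusted p = 0.0151) that was lost without female ARE-Del 3 or male ARE-Del 2. Mrps18b, which has the paralogues Mrps18a and Mrps18c, had 5.12, 5.45 and 5.93 RPKM in female ARE-Del and 6.89, 7.64 and 6.28 RPKM in male ARE-Del. Its difference of -0.29 (adjusted p = 0.0431) was lost in 12 of 23 alternative analyses, including the one without female ARE-Del 2 (adjusted p = 0.0863). Mrps18a and Mrps18c were not called in any comparison of the deposited values. The other members called lower in female ARE-Del were Mrpl32, Mrpl47, Mrpl1 and Mrps10, with log2 differences from -0.26 to -0.21.

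The pseudogene Mrps33p had the largest difference between the sexes in WT, with 1.05, 0.918 and 0.512 RPKM in females and 2.09, 1.94 and 2.88 RPKM in males (-0.86, adjusted p = 0.00913). In ARE-Del it had 1.58, 1.18 and 1.27 RPKM in females and 0.710, 1.77 and 1.64 RPKM in males, and the groups overlapped. Its reads may be shared with its parent gene, so its value is uncertain.

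With each library shifted by its median deviation, 6.80% of tested genes were called higher and 5.75% lower in female than in male WT, and 10 members lower. In ARE-Del it called 15.3% higher and 10.9% lower, and 19 members lower, 13 of them without female ARE-Del 2. The sex differences of the 74 members in WT and in ARE-Del, which share no library, correlated with r = 0.43 and had the same sign in 56. Without Mrps33p r was 0.68. Here too no correlation over all tested genes is given for comparison. The interaction, which tests whether the sex difference changed with genotype, called no member.

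**Figure D5:**
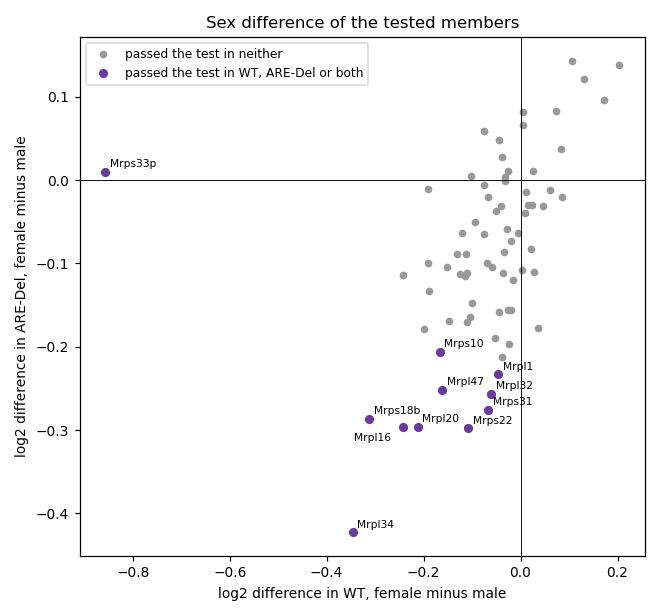
Log2 difference, female minus male, in WT (horizontal axis) and in ARE-Del (vertical axis) for the 74 tested members; filled purple points passed the test in at least 1 genotype. All labelled members lie below 0 in ARE-Del except Mrps33p.

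Some of the machinery genes differed between the sexes as well. Over all tested genes 6.72% were called higher and 3.04% lower in females in WT, and 16.4% and 6.02% in ARE-Del. Nars2, the mitochondrial asparaginyl-tRNA synthetase, was lower in females in WT (-0.46, adjusted p = 0.00407) and in ARE-Del (-0.59, adjusted p = 0.000448). Mtif2, the mitochondrial initiation factor, was lower in females in WT (-0.28, adjusted p = 0.0245) and in ARE-Del (-0.22, adjusted p = 0.0354). In ARE-Del, Letm1 (-0.42, adjusted p = 0.000616), Yars2 (-0.35, adjusted p = 0.00535), Rpusd3 (-0.34, adjusted p = 0.00459) and Lrpprc (-0.31, adjusted p = 0.0222) were lower in females. Rpusd4, an rRNA pseudouridine synthase, was higher in female ARE-Del (0.26, adjusted p = 0.0367). Of the 19 tested genes of the synthetase list, 3 were called lower and 1 higher in female ARE-Del, and not all of them are named here. Ppargc1a was higher in female than in male WT (0.46, adjusted p = 0.0108). Oxidative phosphorylation subunits were lower in female ARE-Del in 12 of 69 and higher in none, with a median of -0.13. Cytosolic ribosomal proteins were higher in 3 and lower in 1 of 71, with a median of 0.07.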

How the data were processed

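Liver RNA of 12 libraries (3 per group) was analysed from 1 table of RPKM values. The authors made the deposited RPKM values with Trimmomatic 0.30, TopHat2 2.0.8, Partek and GenomeStudio 6.6 on mm9, per the submitters' processing notes. The counting rule and the use of strand were not given in the sources used here. RPKM sums are moved by a few very abundant liver genes: the 20 highest took 34.8% to 40.7% of each library.

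All values were set to log2(RPKM + 1), which understates the change of low genes. Genes that reached 0.5 RPKM in 3 or more libraries were fitted with limma 3.58.1 in R 4.3.3 (4 group means over 12 libraries, eBayes with trend), with Benjamini-Hochberg adjustment over 10568 genes and a threshold of 0.05, 2-sided. The script was tested on simulated data. Alternatives covered scaling, pseudocount, filter, moderation, replicate block and leaving out each library. Figures used matplotlib 3.10.9.

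Members and gene lists were chosen with earlier results of these data known. Members named with values are those called, up to 6 per direction and comparison with the largest change, the 5 with the highest and the 3 with the lowest mean RPKM, and any below the filter. From each list of other genes up to 3 called genes are named per comparison. Promoter windows come from RefSeq (GRCm38.p6), and files' coordinates on mm9 were not used.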

Additional observations from a re-analysis of the deposited data

How the results depend on the processing

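The number of members called depended most on the scaling, and the cause was not tested. Median-of-ratios scaling, quantile normalization and centring on the median value called 37, 42 and 47 members in female ARE-Del against female WT (2 on deposited values), 21, 20 and 28 in males (1), 55, 53 and 59 in the averaged comparison (6), 16, 11 and 11 between the sexes in WT (3) and 27, 25 and 25 in ARE-Del (10). Subtracting each library's median deviation, added later, called 23, 7, 38, 10 and 19 members in these comparisons, and without female ARE-Del 2 also 20, 7, 35 and 9 in the first 4. The members' median log2 change under the same 4 scalings was -0.18, -0.18, -0.20 and -0.14 in females, -0.15, -0.15, -0.16 and -0.11 in males and -0.17, -0.16, -0.18 and -0.13 averaged; without female ARE-Del 2 the last was -0.14, -0.11 and -0.12. For the sex difference in WT median-of-ratios scaling gave -0.11. Fitting only the 6 libraries compared called 1 member in females and 6 between the sexes in ARE-Del, and fitting without a filter called 2 in males. Leaving out 1 library at a time gave 0 to 4 members in females, 0 to 2 in males, 5 to 8 averaged, 1 to 4 between the sexes in WT and 4 to 11 in ARE-Del. Counts of members below the median gene stayed within 1.5 times their value under every alternative run, a band that most of these counts could hardly leave. Shifting libraries by a constant on the log2 scale cannot change these counts, so such runs do not test them. Leaving out 1 library gave 62 to 65 members below in females, 59 to 66 in males and 63 to 68 averaged. The interaction called 0 members in each alternative run. Mrpl19 in the averaged comparison changed direction, to -0.041 (adjusted p = 0.271 by limma) under quantile normalization and -0.0355 (adjusted p = 0.361) after centring on the median value.

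Same-numbered replicates did not deviate together: over 18 pairs the correlation ran from -0.29 to 0.24, so the numbers were not taken to pair samples. A replicate block called 2 members in males, 1 between the sexes in WT, 2 in females, 6 averaged, 7 between the sexes in ARE-Del and 0 for the interaction. Read depth was not known, and with 3 libraries per group the median standard error of a member's log2 difference was 0.0715.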
